A study of Mus musculus with 10 samples.

Results

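Pdk4, Angptl4, Cpt1a, Cpt1b, Cd36, Ucp2, Ucp3, Acadl and Fabp3 are genes of fatty acid uptake and oxidation, and most are known targets of the peroxisome proliferator-activated receptors (PPARs). They were read from the array rows whose annotation gave 1 gene symbol and no other. Of several such rows for a gene, the one with the highest mean over all 10 arrays was kept, and that mean served only to choose the row. Of the 9 genes, 8 were measured in this way, of 29766 genes in all, and Ucp2 was not analysed here. The set was chosen by function with the runner minus control values of these same arrays in view. The tissue was cochlea, the coiled part of the inner ear that senses sound, and the mice were of strain CBA/CaJ, 6 months of age, normal in hearing and singly housed. The 5 runner arrays came from mice whose cage held a running wheel and the 5 control arrays from mice whose cage held none. No genetic change or drug was named for either group. The series asks how long-term voluntary running bears on hearing loss with age, and these young animals are the comparison described here. The labels do not give distance run, sex or whether each array stands for a separate animal, so each p-value reflects no more than the scatter of these samples.

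A cell that burns fatty acids takes them up at its membrane, activates them with coenzyme A and passes them through the carnitine shuttle into the mitochondrion, where beta-oxidation shortens them. PPARs are nuclear receptors that bind fatty acids and, paired with a retinoid X receptor, switch on genes of this route in liver, muscle, heart and fat. Fasting, exercise and glucocorticoids are known to raise several of these genes in such tissues.

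PPARs bind direct repeats of the hexamer AGGTCA with 1 base between them, so the 250 bases before the start of each gene were searched for these letters on both strands. Promoters were taken from RefSeq (build GRCm38.p6), which held 7 of the 9 genes, 6 of them measured on the arrays. The promoter of Pdk4 is shown because this gene had the largest difference of the set, and those of Ucp3 and Cpt1a because they hold the hexamer, in capitals as AGGTCA or its reverse complement TGACCT. The Pdk4 window lies at chr6:5496279-5496528 on the minus strand, the Ucp3 window at chr7:100472741-100472990 on the plus strand and the Cpt1a window at chr19:3323051-3323300 on the plus strand.
Pdk4: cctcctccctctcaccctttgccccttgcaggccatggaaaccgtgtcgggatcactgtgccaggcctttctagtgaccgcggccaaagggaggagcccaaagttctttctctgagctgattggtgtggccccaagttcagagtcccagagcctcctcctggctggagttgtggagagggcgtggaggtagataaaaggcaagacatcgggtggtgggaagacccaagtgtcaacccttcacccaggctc
Ucp3: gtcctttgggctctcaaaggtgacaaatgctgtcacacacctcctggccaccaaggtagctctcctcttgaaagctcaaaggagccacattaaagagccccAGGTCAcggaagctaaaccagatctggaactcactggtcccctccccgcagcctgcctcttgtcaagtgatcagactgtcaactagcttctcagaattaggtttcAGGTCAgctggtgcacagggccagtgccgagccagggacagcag
Cpt1a: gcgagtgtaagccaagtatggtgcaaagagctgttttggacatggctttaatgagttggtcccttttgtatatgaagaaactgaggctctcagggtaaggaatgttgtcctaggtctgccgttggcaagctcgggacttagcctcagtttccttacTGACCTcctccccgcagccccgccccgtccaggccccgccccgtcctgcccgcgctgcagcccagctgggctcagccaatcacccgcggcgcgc
The Ucp3 window held 2 hexamers, which began 149 and 44 bases before the start of the gene. The Cpt1a window held 1, 94 bases before the start, and the Pdk4 window held none. With the Cd36 window, which held 1 hexamer 228 bases before the start, 3 of the 7 windows held it, beside 14.0% of 32817 mouse promoters of the same length. The direct repeat AGGTCANAGGTCA was in 0 of the 7 windows and in 0.0335% of all promoters. These matches describe the letters in the window and are not measured binding sites.

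Expression values were log2 intensities as deposited, with array medians between 5.35 and 5.43 and correlations between arrays of 0.991 to 0.997. In the controls Coch, an abundant cochlear matrix gene, averaged 11.2 and Otof, the hair cell gene otoferlin, 6.36. Both were above the median gene at 5.4, but Otof was the brightest of the 10 hair cell markers, and 6 of the 10 were below it. The dissected tissue also held RNA of muscle, brain and red cell precursors, with control means of 9.18 for Myh4, 10.6 for Gabra6 and 9.80 for Alas2. Several marker lists were lower on average in runners, among them hair cells (10 of 10 measured markers), supporting cells (8 of 9), stria vascularis (7 of 9), spiral ligament (8 of 8), macrophages (10 of 10), erythroid cells (6 of 6) and B lineage (9 of 9). In the same order, 3, 4, 4, 5, 5, 2 and 8 were lower at an unadjusted p under 0.05 (limma), beside 3.92% of all genes. With no threshold, 14742 of all 29766 genes were lower on average. Runner 1 nevertheless had the highest mean of all arrays for 4 of these lists. They were hair cells (5.47), supporting cells (7.11), stria vascularis (6.97) and spiral ligament (8.49). The osteoblast list was lower in 7 of 7, among them the 2 genes of all tested that had an adjusted p under 0.05 (limma). Neuron and brain markers went the other way, with 8 of 10 and 6 of 8 higher on average. At an unadjusted p under 0.05 (limma), 2 neuron markers were higher and 1 lower, and 0 brain markers were either. By comparison, 3.21% of all genes were higher at that p. In such bulk tissue, fewer cells of a type and less RNA per cell cannot be told apart. Precision is limited by having 5 arrays a group, and the labels name no batch.

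In the runners, Angptl4 and Pdk4 were the members that stood highest against the controls. The groups overlapped in every member but Angptl4, and in the 6 members other than these 2 the 95% interval of the difference held 0. No member passed the test over all genes (limma, Benjamini-Hochberg adjusted p under 0.05), and neither did any of the other genes of the route. By comparison, 0.00672% of the 29766 genes passed, which is 2 genes. On average 6 of the 8 members were higher in runners, a direction shared by 50.5% of all genes, and 2 were lower. Angptl4 and Pdk4, 2 of 8, were higher at an unadjusted p under 0.05, beside 3.21% of all genes, and 0 were lower, beside 3.92%. The median log2 difference over the 8 genes was 0.093, against 0.00091 over all genes tested. It was 0.0307 without runner 3 and 0.0578 without runner 5. These genes were picked with results of these arrays known, so the counts describe them and carry no test.

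**Figure D1:**
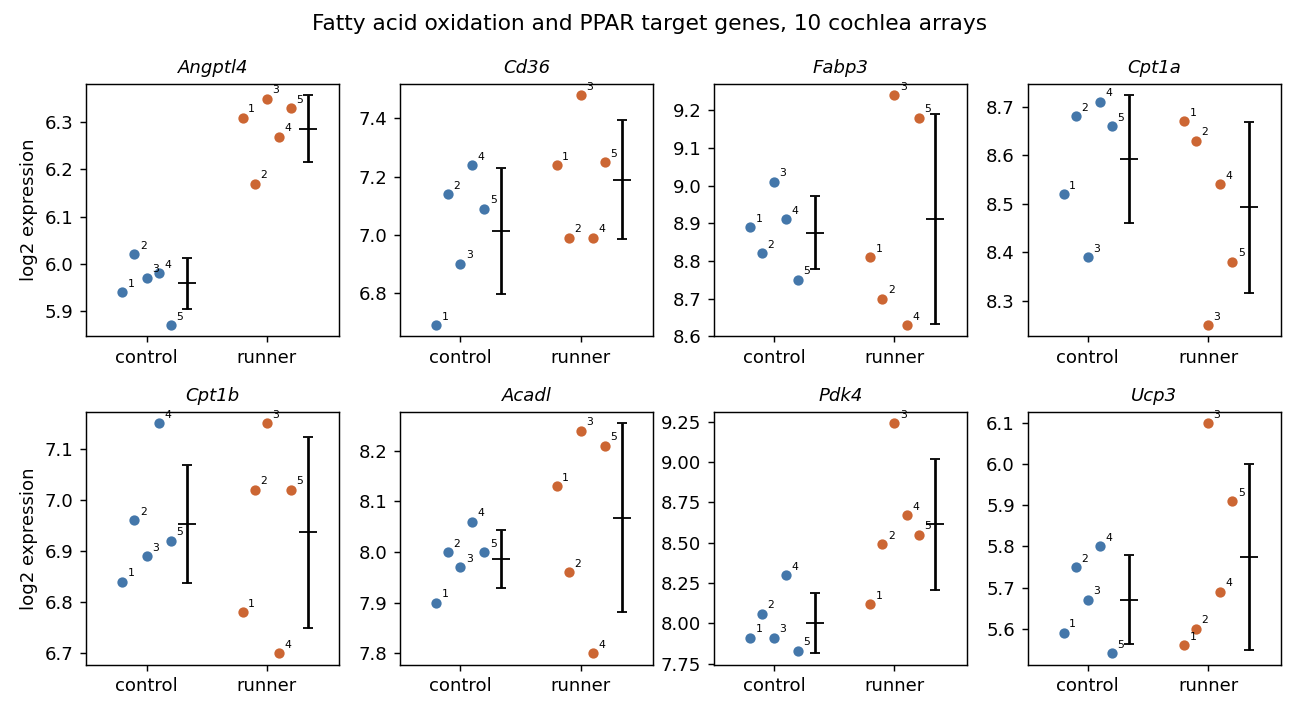
Log2 expression of the 8 measured genes in the 5 control (blue) and 5 runner (orange) arrays, numbered by array, each panel on its own axis; bars give the mean and 1 SD. For Angptl4 the runners, from 6.17 to 6.35, lie above every control, whereas the groups overlap in the other 7 panels.

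The first members act outside or at the membrane. Angptl4 encodes a secreted inhibitor of lipoprotein lipase, the enzyme that frees fatty acids from circulating fat. Its log2 level was 5.94, 6.02, 5.97, 5.98 and 5.87 in controls 1 to 5 and 6.31, 6.17, 6.35, 6.27 and 6.33 in runners 1 to 5. Every runner lay above every control, an arrangement found for 0.380% of all genes. The log2 difference was 0.33 ± 0.054 (SE, n = 5 and 5), a 1.26-fold higher level in runners (limma, adjusted p = 0.141). By its p-value Angptl4 stood at rank 9 of all genes. Its adjusted p was 0.0487 without runner 1, 0.0476 with limma's array weights and 0.0423 without the arrays numbered 1 of both groups, so the call depended on these choices.

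Angptl4 was the 1 measured gene of its family whose groups did not overlap. Of the 5 measured angiopoietin-like genes, 2 were higher and 3 lower on average, and the median log2 difference of the family, -0.015, turned to 0.00235 on repeated quantile normalization and 0.00862 on median centring. Over the genes of the family at or above the median level of all genes it was 0.254. Angptl7, a secreted protein known from the cornea and the eye's outflow tissue, had a log2 difference of 0.25 ± 0.13 (limma, adjusted p = 0.719). Angptl1, Angptl6 and Angptl8 had log2 differences of -0.070, -0.015 and -0.022, each smaller than its standard error.

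Cd36 encodes a membrane receptor that takes up long-chain fatty acids in muscle, fat and capillaries. Cd36 stood at a log2 level of 6.69, 7.14, 6.90, 7.24 and 7.09 in controls 1 to 5 and 7.24, 6.99, 7.48, 6.99 and 7.25 in runners 1 to 5. The groups overlapped, with control 1 lowest and runner 3 highest. Runners minus controls gave a log2 difference of 0.18 ± 0.12, with a 95% interval of -0.073 to 0.43 (limma, adjusted p = 0.777). It was 0.0962 without control 1, 0.105 without runner 3 and 0.0846 without the arrays numbered 1 of both groups.

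Fabp3 encodes the heart and muscle fatty acid binding protein, which carries fatty acids through the cytosol. On the log2 scale Fabp3 was at 8.89, 8.82, 9.01, 8.91 and 8.75 in the controls and 8.81, 8.70, 9.24, 8.63 and 9.18 in the runners, in array order. Runners 3 and 5 lay above all controls and runners 2 and 4 below all of them. The group means differed by 0.037 ± 0.11 on the log2 scale, with a 95% interval of -0.21 to 0.28 (limma, adjusted p = 0.968). A second row for Fabp3, with control and runner means of 5.47 and 5.41, differed by -0.054, and the mean of both rows gave -0.00821, so the sign rested on the choice of row.

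All 10 fatty acid binding protein genes were measured, and 7 were higher and 3 lower on average in runners (median log2 difference 0.028). With 1 array left out that median ran from -0.0271 (without runner 5) to 0.0779 (without runner 4). Fabp4, the fat cell and capillary form, had the largest value at 0.53 ± 0.12 (limma, adjusted p = 0.479). Its log2 level ran from 6.59 to 7.14 in controls and from 7.17 to 7.83 in runners, so its groups did not overlap. Fabp7, the brain and glial form, had a log2 difference of -0.18 ± 0.093 (limma, adjusted p = 0.729). Of the family, 6 genes had a mean level below the 25th percentile of all genes (3.75 on the log2 scale).

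Among the other genes of uptake and activation, differences were small and went both ways. Of 15 measured genes of this list, Cd36 included, 9 were higher and 6 lower, with a median log2 difference of 0.043 that ran from 0.0113 (without runner 5) to 0.0624 (without runner 2) with 1 array left out. At an unadjusted p under 0.05 (limma), 1 gene was lower, beside 3.92% of all genes, and 0 were higher, beside 3.21%. The gene was Acsl5, an acyl-CoA synthetase of mitochondria and the gut, at -0.21 ± 0.091 (limma, adjusted p = 0.678). Slc27a4, a fatty acid transport protein with synthetase activity, had a log2 difference of 0.089 ± 0.049 (limma, adjusted p = 0.730). Its runners, at 7.48 to 7.62, did not overlap with its controls, at 7.40 to 7.47. Acsl6, the brain-enriched synthetase, had a log2 difference of 0.11 ± 0.073 (limma, adjusted p = 0.775).

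The next members move fatty acids into the mitochondrion and break them down. Cpt1a encodes the liver form of carnitine palmitoyltransferase 1, the regulated gate of the shuttle. Its log2 level was 8.52, 8.68, 8.39, 8.71 and 8.66 in controls 1 to 5 and 8.67, 8.63, 8.25, 8.54 and 8.38 in runners 1 to 5. The groups overlapped, and runner 3, which was highest for most members, was lowest here. Its log2 difference was -0.099 ± 0.090, with a 95% interval of -0.29 to 0.096 (limma, adjusted p = 0.837), and it was -0.0389 without runner 3.

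Cpt1b encodes the muscle and brown fat form of the same enzyme. Log2 levels were 6.84, 6.96, 6.89, 7.15 and 6.92 in the controls and 6.78, 7.02, 7.15, 6.70 and 7.02 in the runners, in array order. Runners 1 and 4 lay below all controls and runners 2 and 5 among them. Runner 3 lay above every control, though level with control 4 to 2 decimals. Between the group means lay a log2 difference of -0.016 ± 0.090, with a 95% interval of -0.21 to 0.18 (limma, adjusted p = 0.983), and it became 0.00718 after median centring.

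All 9 listed genes of the carnitine shuttle were measured, and 6 were higher and 3 lower in runners (median log2 difference 0.066, and from 0.0392, without runner 3, to 0.0642 with 1 array left out). Acacb, the mitochondrial acetyl-CoA carboxylase whose product inhibits Cpt1 enzymes, had a log2 difference of 0.23 ± 0.098 (limma, adjusted p = 0.674). Slc25a20, the carnitine and acylcarnitine carrier, had a log2 difference of 0.085 ± 0.066 (limma, adjusted p = 0.807). Cpt2, which acts on the inner side of the membrane, had a log2 difference of 0.066 ± 0.061, and Cpt1c, the neuronal relative of Cpt1a, one of 0.084 ± 0.080. These last 3 differences were close in size to their standard errors.

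Acadl encodes long-chain acyl-CoA dehydrogenase, which takes the first step of mitochondrial beta-oxidation in mouse tissues. In log2 units Acadl was at 7.90, 8.00, 7.97, 8.06 and 8.00 in the controls and 8.13, 7.96, 8.24, 7.80 and 8.21 in the runners, in array order. Runners 1, 3 and 5 lay above all controls and runner 4 below them. For Acadl the log2 difference was 0.082 ± 0.082, with a 95% interval of -0.096 to 0.26 (limma, adjusted p = 0.858), and the SD among runners was 3.27 times that among controls. The difference was 0.0388 without runner 3, 0.0467 without runner 5 and 0.150 without runner 4.

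Of 19 measured genes of mitochondrial beta-oxidation, 15 were higher and 4 lower in runners, with a median log2 difference of 0.064 that was 0.0163 without runner 3 and 0.0324 without runner 5. At an unadjusted p under 0.05 (limma), 1 gene was higher, beside 3.21% of all genes, and 0 were lower, beside 3.92%. The gene was Acad11, an acyl-CoA dehydrogenase of long chains, at 0.14 ± 0.065 (limma, adjusted p = 0.697). Hadhb, the thiolase subunit of the trifunctional protein, had a log2 difference of 0.14 ± 0.095 (limma, adjusted p = 0.783). Acadm, the medium-chain dehydrogenase, had one of 0.030 ± 0.074 (limma, adjusted p = 0.953). In the peroxisomal branch, 11 of 14 measured genes were higher and 3 lower (median log2 difference 0.029). None, 0 of 14, reached an unadjusted p under 0.05 (limma), beside 7.13% of all genes in either direction. With 1 array left out the median of that list ran from -0.00749 (without runner 3) to 0.0604 (without runner 2).

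**Figure D2:**
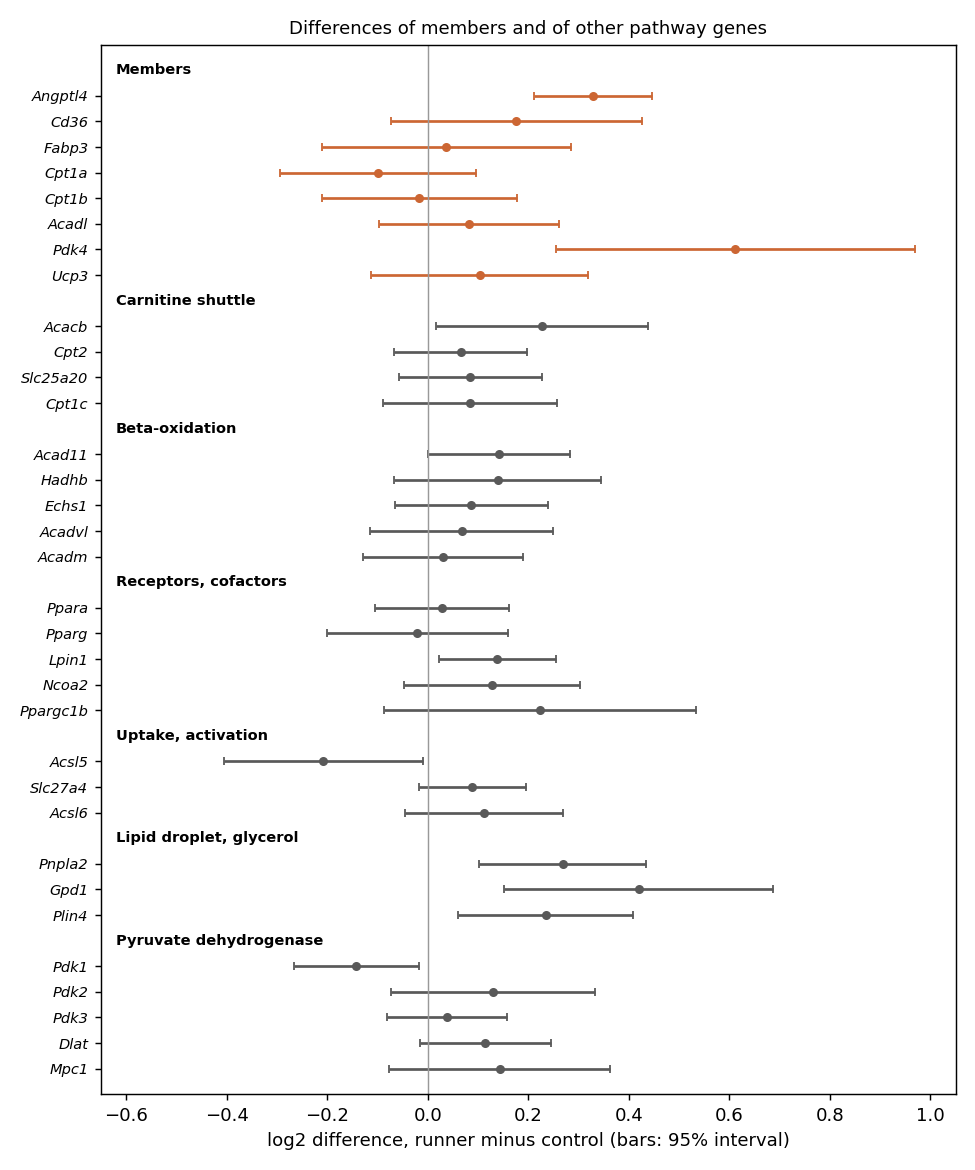
Log2 difference, runner minus control, of the 8 measured members (orange) and of named genes of the same route (grey), with bars for the 95% interval of each difference. The intervals of Angptl4 and Pdk4 lie above 0 among the members, while the other 6 cross it.

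The last members bear on the choice between glucose and fat as fuel. Pdk4 encodes a kinase that switches off pyruvate dehydrogenase and so spares glucose when fat is burned. Its log2 level was 7.91, 8.06, 7.91, 8.30 and 7.83 in controls 1 to 5 and 8.12, 8.49, 9.24, 8.67 and 8.55 in runners 1 to 5. In 4 of the 5 runners the level was above every control, runner 1 fell among the controls, and runner 3 stood 2.35-fold above the control mean. The log2 difference was 0.61 ± 0.16, a 1.53-fold higher level in runners, with a 95% interval of 0.25 to 0.97 (limma, adjusted p = 0.536). Pdk4 differed by 0.456 on the log2 scale without runner 3 (adjusted p = 0.870) and 0.736 without runner 1 (adjusted p = 0.0544).

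The other kinases of the complex were not shifted alike. Pdk1, the isoform known to respond to hypoxia, had a log2 difference of -0.14 ± 0.058 (limma, adjusted p = 0.649). Pdk2, the widely expressed form, had one of 0.13 ± 0.094, and Pdk3 one of 0.038 ± 0.055. Of 13 measured genes of the complex, its kinases, phosphatases and pyruvate carriers, 12 were higher and 1 lower in runners (median log2 difference 0.070, and 0.0284 without runner 3). At an unadjusted p under 0.05 (limma) there was 1 gene in each direction, Pdk4 higher and Pdk1 lower, beside 3.21% and 3.92% of all genes. Mpc1, a subunit of the mitochondrial pyruvate carrier, had a log2 difference of 0.14 ± 0.10 (limma, adjusted p = 0.783).

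Ucp3 encodes the uncoupling protein of skeletal muscle and brown fat, a mitochondrial carrier whose mRNA is known to rise when fatty acids do. Its log2 level was 5.59, 5.75, 5.67, 5.80 and 5.54 in controls 1 to 5 and 5.56, 5.60, 6.10, 5.69 and 5.91 in runners 1 to 5. Runners 3 and 5 lay above all controls and the other runners among them. The log2 difference was 0.10 ± 0.10, with a 95% interval of -0.11 to 0.32 (limma, adjusted p = 0.850), and 0.0225 without runner 3.

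Ucp1, the heat-producing uncoupling protein that marks brown fat, varied far more. Ucp1 had log2 levels of 4.63, 5.24, 5.20, 6.26 and 6.65 in the controls and 5.56, 8.80, 8.20, 7.13 and 7.93 in the runners, in array order. Runners 2 to 5 lay above all controls, and runner 1 fell among them. The log2 difference was 1.93 ± 0.54, a 3.81-fold higher level (limma, adjusted p = 0.569). Of the related mitochondrial carriers, Slc25a27 had a log2 difference of 0.15 ± 0.11, Slc25a14 one of 0.14 ± 0.073 and Slc25a30 one of -0.018 ± 0.054.

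The receptors themselves differed little between groups. Ppara, the receptor of liver, heart and muscle, averaged 5.70 in controls and 5.73 in runners, a log2 difference of 0.029 with a 95% interval of -0.10 to 0.16 (limma, adjusted p = 0.946). Pparg, the receptor of fat cells, averaged 5.79 and 5.77, a log2 difference of -0.020 with an interval of -0.20 to 0.16 (limma, adjusted p = 0.978). Ppard was not analysed here. Of 11 measured receptors and cofactors, 7 were higher and 4 lower, with a median log2 difference of 0.029 that ran from -0.00721 (without runner 5) to 0.0432 (without control 4) with 1 array left out. Lpin1, a phosphatidate phosphatase that also coactivates PPARs, had a log2 difference of 0.14 ± 0.054 (limma, adjusted p = 0.631). Its controls ran from 7.02 to 7.21 and its runners from 7.24 to 7.34, with no overlap.

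Among 20 other known PPAR targets, 15 were higher and 5 lower in runners (median log2 difference 0.030, and 0.0186 without control 4). At an unadjusted p under 0.05 (limma), 4 were higher, beside 3.21% of all genes, and 0 were lower, beside 3.92%. Pnpla2, the lipase that opens stored fat, had a log2 difference of 0.27 ± 0.077 (limma, adjusted p = 0.583). Gpd1, the cytosolic glycerol-3-phosphate dehydrogenase of fat and muscle, had one of 0.42 ± 0.12 (limma, adjusted p = 0.583), although its lowest runner, at 8.04, was below all controls. Plin4, a lipid droplet coat protein, had one of 0.23 ± 0.080 (limma, adjusted p = 0.607). Tmem135, a peroxisomal and mitochondrial membrane protein, was the last of the 4. These genes are also active in fat cells.

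Over the 6 lists of shuttle, beta-oxidation, peroxisome, receptors, uptake and other targets together, 84 genes that were no members were measured. Of them 61 were higher and 23 lower on average, with a median log2 difference of 0.035. At an unadjusted p under 0.05, 7 were higher and 1 lower, beside 3.21% and 3.92% of all genes, and 0 passed after adjustment. Without runner 3, 55 were higher and 3 were so at an unadjusted p under 0.05. Without control 3 the latter count was 4.

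One array shaped much of the pattern. Runner 3 held the highest level of the 10 arrays in 7 of the 8 members, all but Cpt1a (for Cpt1b, control 4 was level with it to 2 decimals), while 13.3% of all genes were highest in that array. The SD was larger among runners than among controls in 7 of the 8 members, against 67.6% of all genes. The mean log2 level of the 8 genes was 7.76 in runner 3, against 7.29 to 7.52 in controls and 7.41 to 7.60 in the other runners. Runner 5 came next, at 7.60.

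Marker genes of other tissues moved over the same arrays. Of 10 fat cell markers 8 were measured and all 8 were higher in runners. At an unadjusted p under 0.05, 6 were so, beside 3.21% of all genes. Their mean log2 level was 5.45, 5.68, 5.66, 5.80 and 5.71 in controls and 5.87, 5.94, 6.30, 5.82 and 6.16 in runners, highest in runner 3 and with no overlap between groups. Their summed linear level ran from 439 to 588 in controls and from 572 to 853 in runners. Adipoq and Lep, both hormones made by fat cells, had log2 differences of 0.084 ± 0.097 and 0.074 ± 0.077, and Lep and Retn were the 2 markers below the level of the median gene. Of 6 brown fat markers 5 were higher, and 2 of them, Ucp1 and Elovl3, were so at an unadjusted p under 0.05 (limma). Cox7a1, the brightest of the list, had a log2 difference of 0.099 ± 0.16. Summed levels of the list were 543 to 708 in controls and 607 to 1145 in runners, with Elovl3 alone below the median gene. The part of fat in the values of Angptl4, Pdk4 and Cd36 was not tested.

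**Figure D3:**
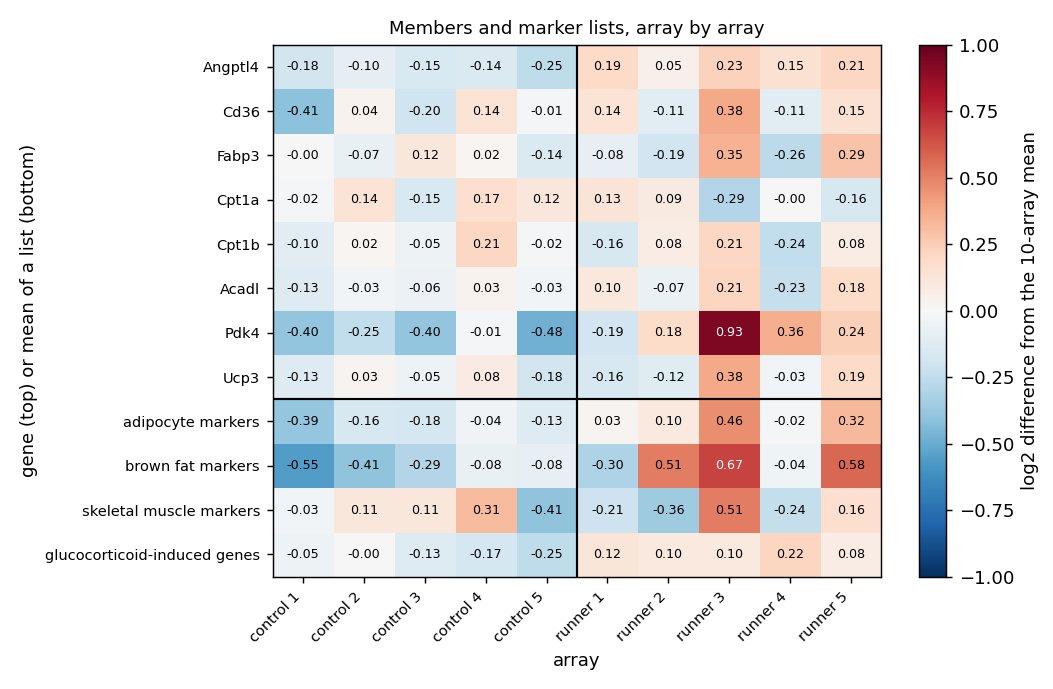
Log2 difference of each array from the 10-array mean for the 8 members (top) and for the mean of 4 gene lists (bottom), with controls left and runners right. Runner 3 has the highest value in 7 of the 8 members and in the fat cell, brown fat and skeletal muscle lists.

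The skeletal muscle list did not separate the groups but varied strongly within them. All 15 markers were measured, 4 were higher and 11 lower in runners (median log2 difference -0.052), and 0 were below the median gene. Their mean log2 level was 8.13, 8.27, 8.27, 8.47 and 7.75 in controls and 7.95, 7.80, 8.67, 7.92 and 8.32 in runners. Their summed linear level ran from 3895 to 6670 in controls and from 4099 to 7532 in runners. The array with the most muscle signal, runner 3, was also the one highest in most members.

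Ucp3 and Fabp3 followed this list across the 10 arrays, though not this list alone. For Ucp3 the correlation was r = 0.86 (permutation p = 0.00098, adjusted p = 0.017) and rho = 0.83 (permutation p = 0.005, adjusted p = 0.0478), with r = 0.72 without the 2 arrays farthest from the median of the list. For Fabp3 it was r = 0.82 (permutation p = 0.00328, adjusted p = 0.021) and rho = 0.90 (permutation p = 0.00072, adjusted p = 0.023), with r = 0.72 without the 2 farthest arrays. After the group means were removed, r was 0.94 for Ucp3, 0.84 for Fabp3, 0.82 for Angptl4 and 0.76 for Pdk4. It was 0.63 for both Cpt1b and Acadl, 0.59 for Cd36 and -0.61 for Cpt1a, as a description with no test. Over all 10 arrays r with the muscle list was 0.19 for Angptl4 and 0.45 for Pdk4. The adjustment ran over 32 relations of the 8 members with 4 lists (fat cell, brown fat, skeletal muscle and glucocorticoid-induced genes). The share of muscle in any member's difference was not tested. With the brown fat list, whose groups overlapped though its mean was 0.565 higher in runners, Pdk4 had r = 0.80 (permutation, adjusted p = 0.0213). Its rho was 0.77 (permutation, adjusted p = 0.08), and r was 0.63 without the 2 farthest arrays. After removal of the group means r was 0.60 for Pdk4 and 0.85 for Cpt1b. No other member had an adjusted p under 0.05 for r or rho with this list. For the fat cell and glucocorticoid lists, whose groups did not overlap, a correlation over all 10 arrays would mix in the group difference and is not given. After removal of the group means, r with the fat cell list was 0.86 for Cpt1b, 0.84 for both Cd36 and Ucp3, 0.80 for Acadl, 0.74 for Fabp3, 0.68 for Pdk4, 0.43 for Angptl4 and -0.45 for Cpt1a, as a description with no test. Within controls and within runners taken apart, r with the fat cell list was 0.54 and 0.93 for Ucp3, but -0.11 and 0.95 for Fabp3. For Cpt1a it was 0.52 and -0.91. With the muscle list it was 0.91 and 0.97 for Ucp3 and 0.68 and 0.93 for Fabp3. For Angptl4 it was 0.85 and 0.80 with the muscle list, and for Pdk4 0.82 and 0.76. Ucp3 thus ran with both lists in both groups, and Fabp3 with the fat cell list in the runners only. Whether either gene followed one list more than the other was not tested.

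**Figure D4:**
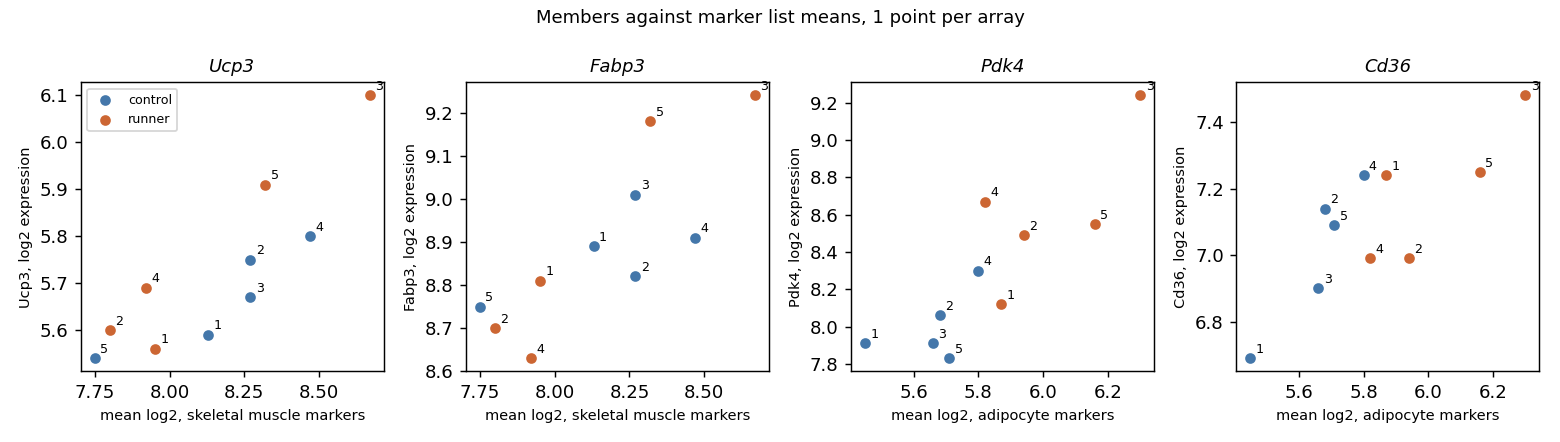
Log2 level of Ucp3 and Fabp3 against the mean log2 level of the skeletal muscle markers, and of Pdk4 and Cd36 against that of the fat cell markers, 1 point per array (controls blue, runners orange). Runner 3 is at the upper right of all 4 panels, at 8.67 on the muscle list and 6.30 on the fat cell list.

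Of the 28 pairs of members, 6 had an adjusted p of 0.046 for r, and Cd36 with Acadl had the highest r and rho. The 2 farthest arrays of a pair were those farthest from the median of the gene named first. Their correlation was r = 0.82 (permutation p = 0.00407, adjusted p = 0.046) and rho = 0.92 (permutation p = 0.00047, adjusted p = 0.0132), with r = 0.79 without the 2 farthest arrays and 0.80 after removal of the group means. Pdk4 with Ucp3 had r = 0.79 (permutation, adjusted p = 0.046) and rho = 0.70 (permutation, adjusted p = 0.208), with r = 0.60 without the 2 farthest arrays and 0.87 after removal of the group means. Pdk4 with Angptl4 had r = 0.78, but the groups of Angptl4 did not overlap, and r was 0.39 after removal of the group means. Ucp3 with Fabp3 had r = 0.80 (permutation, adjusted p = 0.046) but rho = 0.64 (permutation, adjusted p = 0.208), and r was 0.27 without the 2 farthest arrays, so this relation rested on those arrays. Acadl with Fabp3 fell in the same way, from r = 0.78 (permutation, adjusted p = 0.046), with rho = 0.65 (permutation, adjusted p = 0.208), to r = 0.38. After removal of the group means its r was 0.79 (-0.17 within controls and 0.89 within runners). Cpt1a ran opposite to Fabp3 at r = -0.77 (permutation, adjusted p = 0.046), rho = -0.50 (permutation, adjusted p = 0.269). For this pair r was -0.34 without the 2 farthest arrays and -0.79 after removal of the group means.

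The genes whose levels ran most like each member over the 10 arrays were sought among 11885 named genes at or above the median level, as a description with no test. In these values the group difference and the spread within groups are mixed. The closest to Pdk4 were B3galt2 (r = 0.95), Gigyf2 (r = 0.937) and Hectd2 (r = 0.93), and the closest to Angptl4 were Folh1 (r = 0.938), Slc2a1 (r = 0.925) and Rhob (r = 0.921). For Angptl4, whose groups did not overlap, r after removal of the group means was 0.68, 0.82 and 0.73 in the same order. Cpt1a ran with Il6st (r = 0.988), Irak3 (r = 0.988) and Dgka (r = 0.982), and Cpt1b with Clk2 (r = 0.912), Hspbp1 (r = 0.881) and Cox8b (r = 0.872). Cd36 ran with Hsph1 (r = 0.914), Zkscan6 (r = 0.907) and Dnaja1-ps (r = 0.90). Ucp3 ran with Tmem38a (r = 0.936), Atp5md (r = 0.933) and Slc2a4 (r = 0.932). Acadl ran with Ldha-ps2 (r = 0.948), Decr1 (r = 0.936) and Pigx (r = 0.926), and Fabp3 with Chchd2-ps (r = 0.973), Znhit3 (r = 0.969) and Ccdc181 (r = 0.968). Cox8b is also in the brown fat list and Decr1 in the beta-oxidation list used here.

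Angptl4 and Pdk4 are also known to be induced by glucocorticoids, and a list of 14 other such genes was read beside them. Of these 14, 12 were higher and 2 lower in runners, and 8 were higher at an unadjusted p under 0.05, beside 3.21% of all genes. After adjustment 0 passed. The median log2 difference was 0.31, and with 1 array left out it ran from 0.212 (without runner 4) to 0.339 (without control 2). The mean log2 level of the list ran from 7.75 to 8.00 in controls and from 8.08 to 8.22 in runners, without overlap. Cdkn1a, a cell cycle inhibitor, had a log2 difference of 0.32 ± 0.067 (limma, adjusted p = 0.370). Fkbp5, a co-chaperone of the glucocorticoid receptor, had one of 0.47 ± 0.11 (limma, adjusted p = 0.479), and Klf9, a transcription factor, one of 0.32 ± 0.078 (limma, adjusted p = 0.50). Unlike for the fat and muscle lists, runner 3 was not the highest array for this list, which peaked in runner 4. After removal of the group means, r with this list was 0.02 for Pdk4 and 0.33 for Angptl4, as a description with no test. Within controls and within runners taken apart, it was 0.12 and -0.05 for Pdk4 and 0.76 and -0.17 for Angptl4. Corticosterone was not among the values analysed, and the part of these hormones in the levels of Angptl4 and Pdk4 was not tested.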

How the data were processed

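Powdered inner ear gave total RNA, labelled with the biotin WT PLUS kit, per the labels' protocols. The values are log2 expression as deposited by the authors. RMA and Partek were used, per the submitters' processing notes, which name no version. Any chip name, build or filter is not given in the sources used here. RMA makes array distributions alike, so a shift shared by most genes cannot be seen.

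Of 39295 rows, 30130 had 1 symbol, 2146 several and 7019 none, and 827 symbols were updated through RefSeq. The row of highest mean was kept for the 294 genes with several, which left 29766 genes. Groups came from the titles. The all-gene test was limma 3.58.1 (R 4.3.3, group as single term, moderated, two-sided, Benjamini-Hochberg). The same fit was also run on simulated data, in which genes varied independently of each other. Correlations used 100000 permutations in Python 3.11.15, and figures matplotlib 3.10.9.

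Members, tests and the 28 lists (303 genes, 278 measured) were chosen with earlier results of these data known. Named genes were the members, the 3 of smallest p in each list, their family members, the PPARs, marker genes and the 3 genes most like each member. Adipoq, Lep, Retn, Elovl3 and Tmem135 were named after their values were seen. Alternatives were a filter on dim genes, other moderation, rescaling, array weights, other row choices, a replicate block and arrays left out.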

Additional observations from a re-analysis of the deposited data

Results flagged for a closer look

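Of 128 sets of 5 arrays of 1 gene and group examined for an array far from the rest, 3 held one, and chance gives about 1 in 20. No value of the 8 members was among them. Acsl5 was at 7.61 in control 1, while the other controls lay between 7.88 and 7.91, a gap of 0.895 of the group's range. Slc27a4 was at 7.62 in runner 5, while the other runners lay between 7.48 and 7.52, a gap of 0.729 of the range. Fabp4 was at 6.59 in control 1, while the other controls lay between 6.98 and 7.14, a gap of 0.711 of the range. The critical ratio was 0.71.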

How the results depend on the processing

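The counts of genes and members passing, the differences of the 8 members and the medians of the pathway lists were recomputed under 20 alternatives, 10 of which left out 1 array; correlations, marker lists and genes that were no members were not. Angptl4 and Pdk4 were higher at an unadjusted p under 0.05 in all 20, and Cd36, Ucp3, Acadl and Cpt1a kept their direction in all 20. The number of genes passing, 2, became 1 without moderation, 15 with array weights and 426 without the arrays numbered 1 of both groups, and ran from 2 to 99 with 1 array left out, the 99 without runner 1. The number of members passing, 0, became 1 with array weights and 1 without both arrays numbered 1, and ran from 0 to 1 with 1 array left out. That member was Angptl4, whose adjusted p ranged from 0.0423 to 0.570, while that of Pdk4 ranged from 0.0544 to 0.992. The cause of these shifts was not tested. The log2 difference of Cpt1b turned to 0.00718 with median centring and 0.00798 with array weights, and ran from -0.0706 to 0.0421 with 1 array left out. That of Fabp3 was -0.00821 as the mean of all rows and ran from -0.0436 to 0.107 with 1 array left out. Median centring shifted the median of all genes to 0.024 and the unadjusted calls from 955 higher and 1168 lower to 1580 and 843. Counts over the 84 pathway genes, recomputed after seeing the data with 1 array left out or both arrays numbered 1, ran from 53 to 65 higher and from 3 to 10 at an unadjusted p under 0.05.

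Same-numbered arrays did not deviate together, with correlations of -0.25, 0.061, 0.28, 0.070 and -0.19 for numbers 1 to 5, and no runner correlated best with its own number, so the numbers were not taken to pair the samples. With the replicate block 2 genes and 0 members passed, and the log2 differences were 0.329 for Angptl4 and 0.612 for Pdk4, with adjusted p of 0.570 and 0.711.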

Other observations

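Genes of the FoxO and fasting response, a program that fatty acid use often accompanies, were measured for 13 of 14 listed. Of these, 8 were higher in runners and 5 lower, with a median log2 difference of 0.048, and 0 passed after adjustment. Bcl6, a transcriptional repressor of lipid and immune genes, had a log2 difference of 0.51 ± 0.084 (limma, adjusted p = 0.141), and its groups did not overlap. Fbxo32, the muscle atrophy ubiquitin ligase, had one of -0.18 ± 0.074 (limma, adjusted p = 0.651). Sesn1, a stress-induced regulator of growth signalling, had one of 0.15 ± 0.071 (limma, adjusted p = 0.700).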
